A study of Mus musculus with 2 samples.

Results

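The genes described here are 10 members of the MHC class I presentation pathway, taken by symbol from the 32285 genes counted in each of 2 single-cell RNA libraries of mouse pancreatic tumours. They are H2-K1, H2-D1, B2m, Tap1, Tap2, Tapbp, Psmb8, Psmb9, H2-T23 and Nlrc5, all of which were found in both libraries. Their unique molecular identifiers (UMIs, each standing for a captured RNA molecule) were summed per cell class, per subset of tumour cells and per library. Their spread was then measured from cell to cell in the tumour cells.

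The tumours grew from KPC cells, a mouse pancreatic cancer line, placed in the pancreas of host mice and taken at day 21. The control library came from Porcnfl/fl hosts, which the labels also call WT. The knockout library came from Csf1r-Cre;Porcnfl/fl hosts, in which Cre under the Csf1r promoter deletes Porcn, the acyltransferase that Wnt ligands need for secretion, in macrophages; this promoter can also be active in other myeloid cells. All hosts thus carried the floxed allele, the implanted cancer cells were not the target of the deletion, and tumours of 5 mice were pooled into the library of each genotype. With 1 library per genotype there is no replicate error and no test, and every interval below is a 95% interval for counting error only.

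MHC class I molecules show peptides from inside a cell to CD8 T cells. Proteasomes cut proteins into peptides, the TAP transporter moves these into the endoplasmic reticulum, tapasin helps to load them, and a heavy chain paired with beta-2 microglobulin carries them to the surface. Interferons raise most genes of this pathway, and tumours can escape T cells by lowering it.

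On the GRCm38 build, 8 of the 10 genes lay on chromosome 17, in or beside the MHC. The classical heavy chain genes were H2-K1 (ENSMUSG00000061232, chr17:33996017-34000347) and H2-D1 (ENSMUSG00000073411, chr17:35262730-35267499). The non-classical heavy chain gene H2-T23 was at chr17:36029773-36032855. Psmb9, Tap1, Psmb8 and Tap2 followed each other from chr17:34181987-34187764 through chr17:34187553-34197225 and chr17:34197721-34201454 to chr17:34203527-34216321, and Tapbp was at chr17:33915899-33929292. B2m (chr2:122147686-122153083) and Nlrc5 (chr8:94434356-94527272) lay outside the MHC.

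Promoter windows from RefSeq on GRCm38.p6, from 250 bases before to 50 after a start, matched 8 of the 10 members. The stretches below end at the base before the start and are shown because H2-K1 and H2-D1 varied together most closely from cell to cell and all of these genes were higher in knockout neutrophil-like cells. Capitals mark any match, on either strand, to 5 motifs: the interferon element core TTTCNNTT, CCAAT, the cyclic AMP element core TGACG, a kappa B site (GGGGA, any base, TCCC) and the gamma-activated site TTCNNNGAA.
H2-K1, chr17:34000348-34000527, minus strand: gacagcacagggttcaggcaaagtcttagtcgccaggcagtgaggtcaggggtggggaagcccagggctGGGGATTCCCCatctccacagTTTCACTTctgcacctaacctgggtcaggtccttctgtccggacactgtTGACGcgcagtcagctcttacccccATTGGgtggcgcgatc
H2-D1, chr17:35262914-35263093, plus strand: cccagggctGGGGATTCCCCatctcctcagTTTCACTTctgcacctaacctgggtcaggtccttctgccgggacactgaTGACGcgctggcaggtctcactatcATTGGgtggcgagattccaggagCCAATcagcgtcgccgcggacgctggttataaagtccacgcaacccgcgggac
B2m, chr2:122147507-122147686, plus strand: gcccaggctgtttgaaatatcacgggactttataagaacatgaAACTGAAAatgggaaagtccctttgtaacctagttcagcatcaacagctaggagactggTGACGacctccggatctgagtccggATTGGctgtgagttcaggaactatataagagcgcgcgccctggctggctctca
H2-T23, chr17:36032702-36032881, minus strand: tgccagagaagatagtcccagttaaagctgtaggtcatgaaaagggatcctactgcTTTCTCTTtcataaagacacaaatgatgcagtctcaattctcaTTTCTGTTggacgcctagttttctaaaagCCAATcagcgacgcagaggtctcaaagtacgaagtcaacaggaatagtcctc
Tap1 and Psmb9, the stretch between their starts read towards Tap1, chr17:34187331-34187555, plus strand: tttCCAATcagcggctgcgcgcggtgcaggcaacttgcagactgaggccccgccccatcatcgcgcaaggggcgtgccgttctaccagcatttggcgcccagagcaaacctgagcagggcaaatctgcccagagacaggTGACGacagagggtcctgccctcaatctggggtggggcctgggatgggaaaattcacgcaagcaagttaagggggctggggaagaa
Psmb8, chr17:34198015-34198194, plus strand: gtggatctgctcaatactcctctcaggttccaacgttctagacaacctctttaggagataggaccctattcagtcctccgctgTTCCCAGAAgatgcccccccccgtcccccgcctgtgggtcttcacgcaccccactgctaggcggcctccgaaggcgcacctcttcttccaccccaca

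The kappa B motif was found in H2-K1 and H2-D1 and in 0.323% of all 32851 windows of 300 bases. In both genes its matches on the 2 strands overlapped, and the interferon element core followed at the same spacing. Lined up on that motif without gaps, the H2-K1 and H2-D1 windows were identical at 180 of 254 bases (70.9%). The interferon element core was in 4 of the 8 matched members (H2-K1, H2-D1, B2m and H2-T23) and in 23.9% of all windows. CCAAT was in 7 of 8 against 37.4%, TGACG in 5 of 8 against 20.8%, and the gamma-activated site in 1 of 8 (Psmb8) against 8.30%. The windows of Tap1 and Psmb9, which are read in opposite directions, shared 275 of their 300 bases. Their CCAAT and TGACG matches lay on the same genome bases, so each of these sites was counted for both genes. A match describes the letters and shows no binding.

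The control library held 13766 barcodes and 173934025 UMIs and the knockout library 12251 barcodes and 137527647 UMIs, and 46 barcodes occurred in both. After filtering and removal of called doublets, 11516 and 10467 cells were kept. The labels name tumour-infiltrating cells, yet 81.9% of kept control cells and 54.6% of kept knockout cells were epithelial/tumour-like by their markers, in which Cldn4 was near 0. Porcn gave 7 UMIs in control monocyte/macrophage-like cells (3.36 CPM, which is UMIs per 1000000 UMIs of the class, interval 1.35 to 6.92) and 4 UMIs in those of the knockout library (1.57 CPM, 0.429 to 4.03). Neutrophil-like cells of both had 0, so at this depth the counts check the genotype in neither class. Which exons the deletion removes is not given in the sources used here, and 3′ counts outside them would check nothing. Free tumour RNA was present: keratins 8, 18 and 19 summed to between 1.59% and 7.30% of their tumour level in the fibroblast-like class and in every leukocyte class with at least 50 cells in a library.

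Levels of the members differed between classes, and fibroblast-like and control neutrophil-like cells had low levels of most members. Averaged over the standardised levels of the 10 members, the lowest of 19 class-by-library profiles were fibroblast-like cells of both libraries (-1.59 in knockout and -1.54 in control, in standard deviations) and control neutrophil-like cells (-1.39). Knockout migratory dendritic-like cells, which are dendritic cells that carry antigen to lymph nodes, had the highest profile (1.33), followed by knockout cDC1-like cells (0.75), the dendritic cells known for cross-presentation on class I, and knockout monocyte/macrophage-like cells (0.55). Knockout neutrophil-like cells stood at 0.15, among the T-like (0.14) and tumour-like profiles.

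H2-K1, a classical heavy chain, was lowest in control neutrophil-like cells at 521 CPM (473 to 573) and highest in control acinar-like cells at 2672 CPM (2546 to 2804). Control tumour-like cells followed at 2282 CPM (2274 to 2289), an interval that overlapped that of NK-like cells. In plasma-like, T-like and monocyte/macrophage-like cells the control levels were 1806, 1785 and 1738 CPM, and neighbours in this order had overlapping intervals. The acinar-like class had summed keratins at 94.8% of the tumour level in control and 102% in knockout. Whether its cells were tumour cells with acinar transcripts or acinar cells was not tested. H2-D1, the other classical heavy chain of this list, had another order: control monocyte/macrophage-like cells were highest at 2091 CPM (2029 to 2154) and fibroblast-like cells lowest at 950 CPM (923 to 978). H2-K1 and H2-D1 resemble each other and other heavy chain genes in sequence, so reads that could come from several of them make these counts uncertain.

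B2m, the light chain shared by all class I molecules, was highest in monocyte/macrophage-like cells, at 4587 CPM in control and 4951 CPM in knockout, with plasma-like cells next in control at 4391 CPM and overlapping them. Fibroblast-like cells were lowest in both libraries, at 1574 and 1539 CPM, and control neutrophil-like cells at 1611 CPM overlapped the control fibroblasts. H2-T23 encodes Qa-1, a heavy chain read by inhibitory receptors of NK cells and T cells. It was highest in acinar-like and tumour-like cells, with 344 CPM in control tumour-like cells, and lowest in control neutrophil-like cells at 107 CPM, which overlapped control fibroblast-like cells at 132 CPM.

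Psmb8 and Psmb9 are catalytic subunits of the immunoproteasome, the form of the proteasome that favours class I peptides. Both were highest in cDC1-like cells: Psmb8 at 1176 CPM in control and 1413 CPM in knockout, and Psmb9 at 911 and 1004 CPM, with no overlap with the next class. Psmb8 was 142 CPM in control neutrophil-like cells and 159 CPM in control fibroblast-like cells, the bottom pair of that library with overlapping intervals. For Psmb9, fibroblast-like cells stood alone at the bottom, at 63.7 CPM in control and 59.9 CPM in knockout.

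Tap1 and Tap2, which together form the peptide transporter, were also highest in cDC1-like cells, where intervals overlapped those of the next class, with Tap1 at 230 CPM in control and 322 CPM in knockout and Tap2 at 172 and 163 CPM. Both were lowest in fibroblast-like cells, where Tap1 gave 32.9 and 27.6 CPM. Tapbp, which encodes tapasin, followed the other members least: its levels over the 19 profiles correlated with the mean of the other 9 at r = 0.19, against 0.90 for Psmb8, and fibroblast-like cells were not low in it (153 and 176 CPM). Nlrc5, the NOD-like receptor protein that switches on class I genes, was highest in T-like cells of the control library at 282 CPM and lowest in fibroblast-like cells at 14.1 CPM in control and 14.2 CPM in knockout. In the knockout library, migratory dendritic-like cells (259 CPM) and neutrophil-like cells (256 CPM) led its order with overlapping intervals. These correlations describe 19 profiles from 2 libraries and share depth and free RNA.

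**Figure D1:**
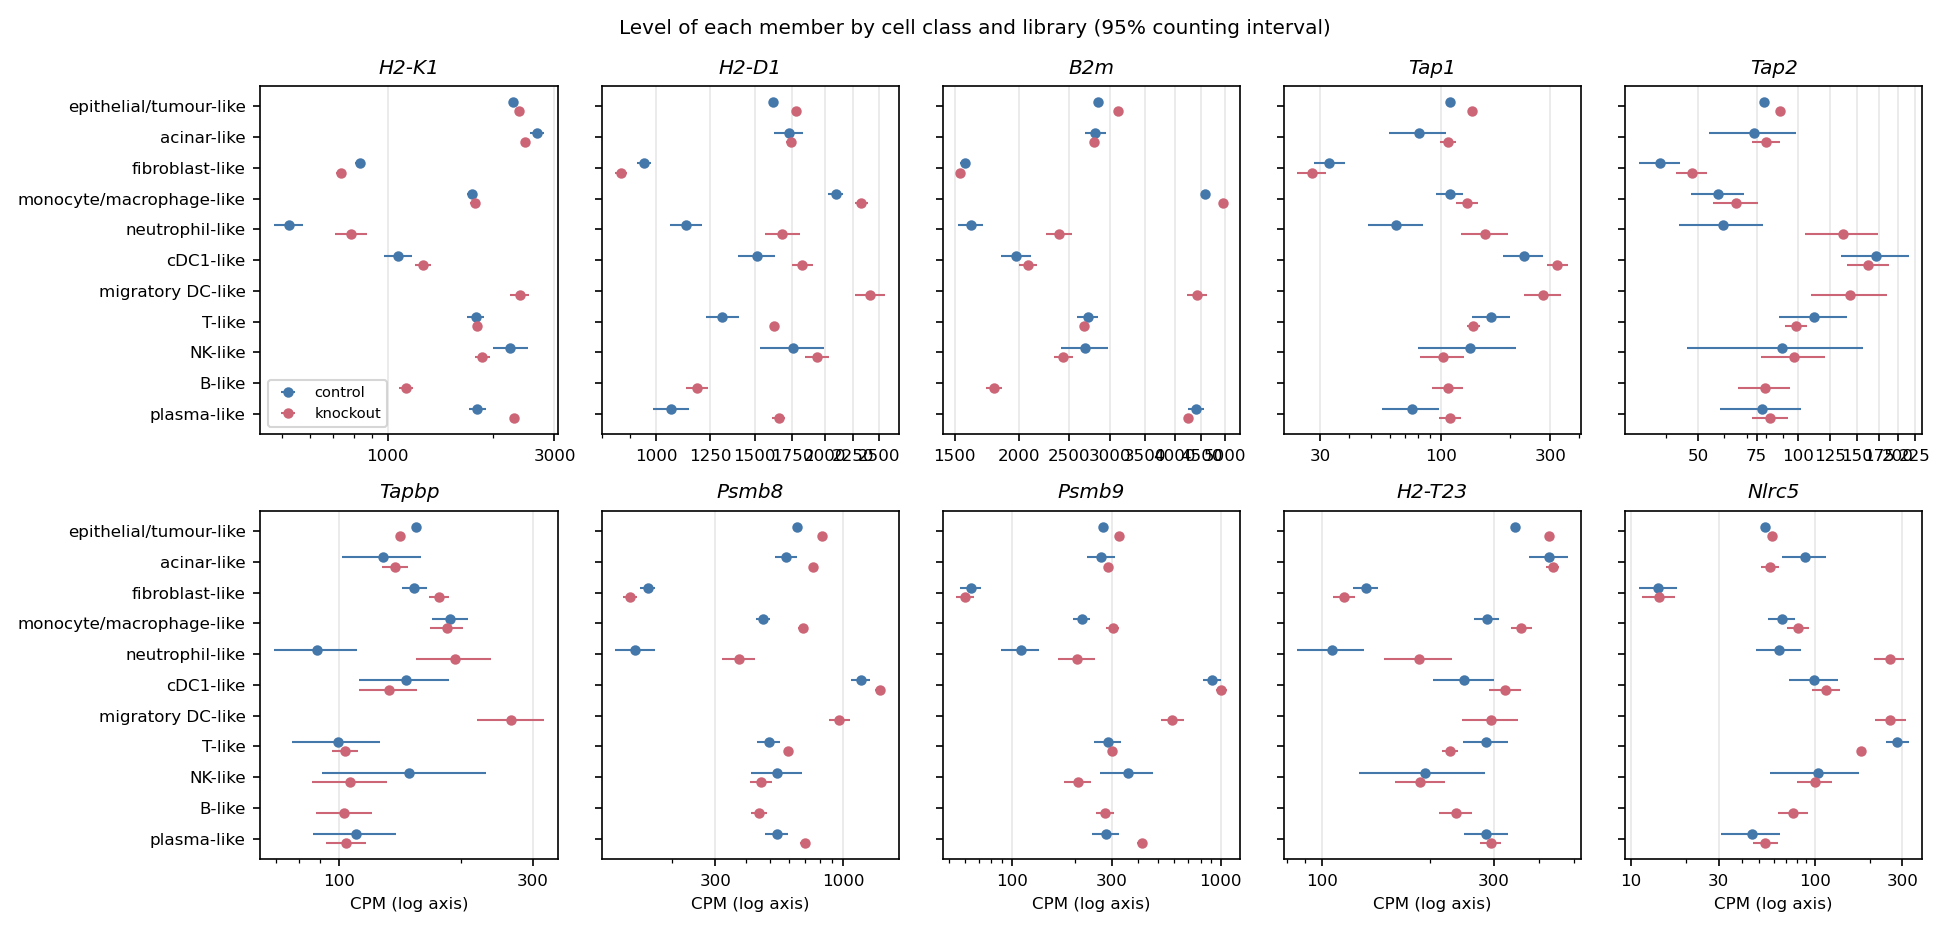
Level of each member in CPM of class UMIs (log axis) in 11 cell classes, with control in blue and knockout in red and bars for the 95% counting interval. Fibroblast-like cells and control neutrophil-like cells sit to the left for most members, and the Nlrc5 level of neutrophil-like cells moves from 64.2 CPM in control to 256 CPM in knockout.

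Among 10827 other genes, the levels most like the mean of the members over those 19 profiles were those of Cox5a (r = 0.85), Ahcyl2 (0.83), Ube2l3 (0.80), Jpt1 (0.78) and Dnajc2 (0.78). All 5 had their lowest level in knockout fibroblast-like cells, with Cox5a, a subunit of cytochrome c oxidase, at 109 CPM there and 493 CPM in knockout migratory dendritic-like cells. The values describe a search over many genes.

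In epithelial/tumour-like cells the pathway was slightly higher in the knockout library. Of the 10 members, 9 had a higher level there with an interval of the ratio above 0 and Tapbp a lower level. None was past 1.5-fold, where 9.79% of 17414 genes were past it upwards and 6.64% downwards. The median log2 ratio of knockout over control was 0.15 for the members and -0.06 for all genes. Psmb8 had 650 CPM in control and 817 CPM in knockout, a log2 ratio of 0.33 (0.32 to 0.34). Tap1 had 110 and 137 CPM (0.32, 0.28 to 0.35) and H2-T23 344 and 426 CPM (0.31, 0.29 to 0.33). Psmb9, with 272 and 325 CPM, had a ratio of 0.25. The classical heavy chains moved less: H2-K1 had 2282 and 2370 CPM (0.05, 0.05 to 0.06) and H2-D1 1618 and 1778 CPM (0.14). B2m, with 2836 and 3112 CPM, had a ratio of 0.13. Tap2 (79.0 and 87.98 CPM) had 0.16 and Nlrc5 (53.8 and 58.3 CPM) 0.12. Tapbp had 155 CPM in control and 141 CPM in knockout, a log2 ratio of -0.13 (-0.16 to -0.10). These intervals are narrow because tumour cells were many. They carry no information on differences between mice and leave out variation between cells. The share of all genes with an interval above or below 0 is not given here.

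Other genes of the pathway in tumour-like cells are given from lists of related genes. Of 11 measured class I heavy chain genes outside the members, 10 were higher in knockout and 3 past 1.5-fold, with a median log2 ratio of 0.48. The 3 were expressed at low levels: H2-Q2 (16 and 40 UMIs), H2-T24 (2.02 and 3.71 CPM) and H2-Q10 (3.04 and 5.18 CPM). The immunoproteasome and PA28 list, which holds the remaining catalytic subunit Psmb10 and the proteasome activator, had a median of 0.09 with 0 of 5 past the fold, and the 14 core subunits of the constitutive proteasome had -0.01 with 0 past it. Loading and trimming genes such as Calr and Pdia3, chaperones that act beside tapasin, had a median of -0.25, with 9 of 10 lower in knockout and none past the fold. Interferon gamma response genes were all higher in knockout (14 of 14, median 0.37), 4 of them past the fold. Among these were Cxcl9 (158 and 308 CPM), a chemokine that draws T cells, and Cd274 (49.1 and 77.8 CPM), which encodes PD-L1. In the type I interferon list 12 of 14 were past the fold, with a median of 0.73 and Ifit3 at 326 and 724 CPM. Over all 17414 genes of the class, 9.79% were past the fold upwards and 6.64% downwards. The class includes a subset led by Cxcl10 and Cxcl9 (subset 5 below), 2.76% of control and 6.14% of knockout tumour-like cells. Within it the interferon gamma list had a median of -0.16, with 3 of 14 higher. That median was also below 0 in subsets 7 and 9, and above 0 in subsets 1, 2, 3, 4, 6 and 11. The part of subset shares in these class values was not tested.

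**Figure D2:**
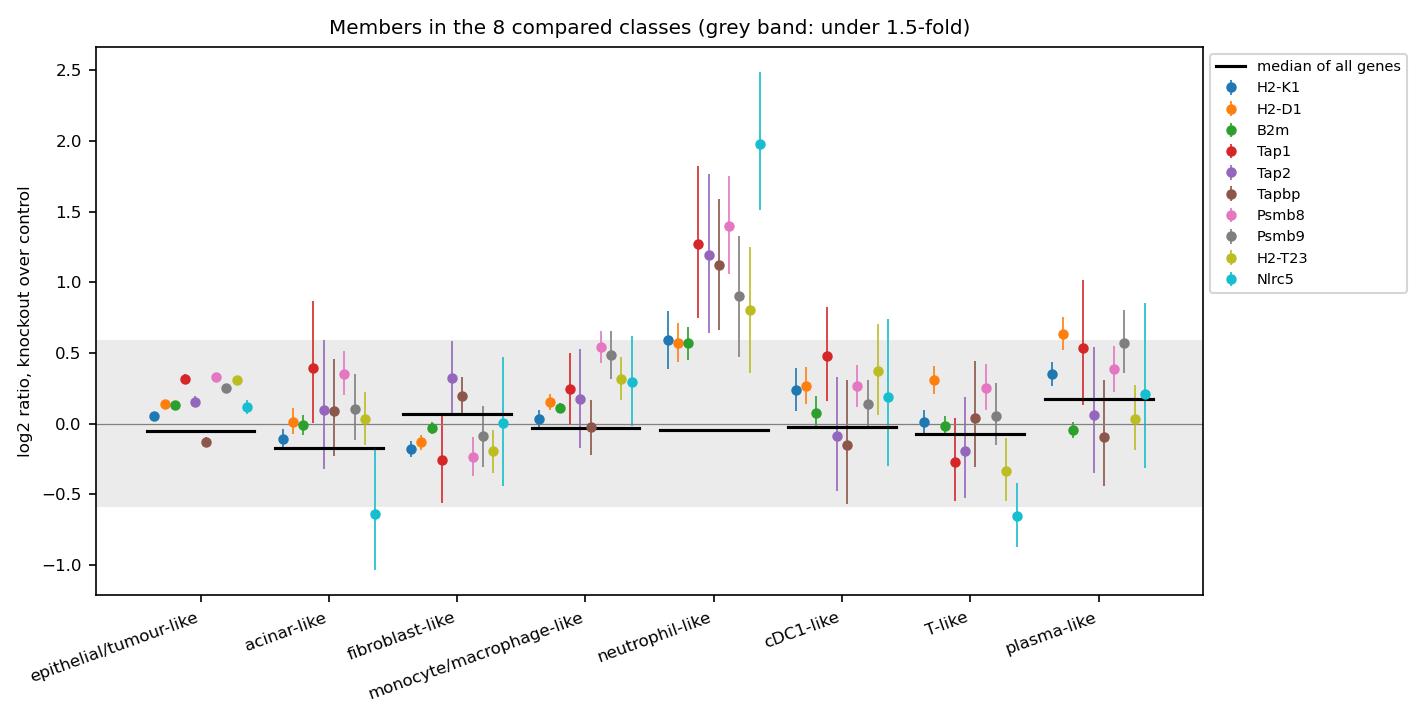
Log2 ratio of knockout over control for each member in 8 cell classes, with bars for the 95% counting interval, a black line for the median of all genes and a grey band for ratios under 1.5-fold. In neutrophil-like cells all 10 members lie above 0, from 0.57 for B2m to 1.98 for Nlrc5, while in epithelial/tumour-like cells they lie between -0.13 and 0.33.

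Neutrophil-like cells had the largest differences of the 8 classes compared. All 10 members were higher in the knockout library with intervals above 0, and 8 were past 1.5-fold, where 16.8% of 5785 genes were past it upwards and 18.7% downwards. Every member had over 100 UMIs in the class. Their median log2 ratio was 1.01 against -0.05 for all genes. Nlrc5, the regulator, had 64.2 CPM (53 UMIs) in control and 256 CPM (118 UMIs) in knockout, a log2 ratio of 1.98 (1.51 to 2.49). Psmb8 had 142 and 375 CPM (1.40, 1.06 to 1.75). The transporter genes had 64.2 and 156 CPM for Tap1 (1.27, 0.75 to 1.82) and 59.4 and 136 CPM for Tap2 (1.19, 0.64 to 1.77). Tapbp, lower in knockout tumour-like cells, was higher here, with 88.4 and 193 CPM (1.12, 0.66 to 1.59). Psmb9 (110 and 206 CPM) had a log2 ratio of 0.90 and H2-T23 (107 and 186 CPM) of 0.81. H2-K1 was 521 CPM in control and 786 CPM in knockout (0.59, 0.39 to 0.80), just past the fold, and under 4 of 12 alternatives it was inside it (0.22 at the lowest, with clusters weighted alike). H2-T23 was inside the fold under 2 of the 12, as a mean over cells and thinned to 2000 UMIs, and Nlrc5, Psmb8, Psmb9 and Tap2 were past it under all 12. H2-D1 (1130 and 1680 CPM) and B2m (1611 and 2388 CPM) had 0.57 each, just inside it. The genes of peptide supply and the regulator thus differed more than the classical heavy chains and the light chain, a difference between members that was not tested.

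The share of neutrophil-like cells with a UMI was also taken, after each cell was thinned to 1000 UMIs, which left out 14 of 293 control and 2 of 185 knockout cells. It was higher in knockout for all 10 members, with intervals apart for 4 (Nlrc5, Psmb8, Psmb9 and Tapbp) and overlapping for the other 6. For Nlrc5 the share was 6.81% (exact binomial interval 4.15% to 10.4%) in control and 24.04% (18.0% to 30.9%) in knockout, and without thinning 11.9% and 32.4%. For Psmb8 it was 11.5% (7.98% to 15.8%) and 30.1% (23.5% to 37.3%), and without thinning 23.9% and 45.4%. For H2-K1 the shares were 41.9% and 47.0%, for H2-T23 13.98% and 16.9%, and for Tap1 7.89% and 15.3%, all with overlapping intervals. The 5 cells with most Nlrc5 UMIs held 28.3% of them in control and 20.3% in knockout. Median depth was 1709 UMIs per control and 1874 per knockout cell. No class here lacks the pathway, so the share that free RNA gives cannot be read from a negative class. Subtracting free RNA in proportion to keratins left a median log2 ratio of 1.07.

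The neutrophil-like class was made of 3 clusters whose shares differed between the libraries. A cluster led by Cxcl2, Il1b, Acod1 and the chemokine genes Ccl3 and Ccl4 held 132 control and 141 knockout cells. A cluster led by S100a9, S100a8, Il1b and Retnlg held 107 and 33, and a cluster with Camp, Ngp and Ltf, granule genes of younger neutrophils, held 54 and 11 and gave no ratio. Within the Cxcl2 cluster all 10 members were higher in knockout, 6 of them past 1.5-fold (10.9% of 3383 genes upwards, 23.8% downwards), with a median log2 ratio of 0.62. There Nlrc5 had 183 and 387 CPM, Psmb8 226 and 452 CPM, and H2-K1 860 and 965 CPM. In the S100a9 cluster 7 members had the 20 UMIs needed for a ratio, all but Tap1, Tap2 and Nlrc5. Of these 5 were higher in knockout and 2 past the fold, Psmb8 and Psmb9 (17.9% of 1986 genes upwards, 15.9% downwards), with a median of 0.31. H2-K1 (-0.14) and B2m (-0.12) were lower there and H2-D1 had 0.02, all with intervals that held 0. The ratio of Psmb8 rested on 16 and 11 UMIs, with an interval of -0.29 to 2.16 that also held 0. That of Psmb9 had an interval of 0.32 to 2.68. With its clusters weighted alike in both libraries, the class had a median of 0.59, with 5 of 10 members past the fold instead of 8: H2-K1, Tap1 and Tapbp were then inside it. The Cxcl2 cluster had higher levels than the S100a9 cluster for Nlrc5 and Psmb8 within each library.

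**Figure D3:**
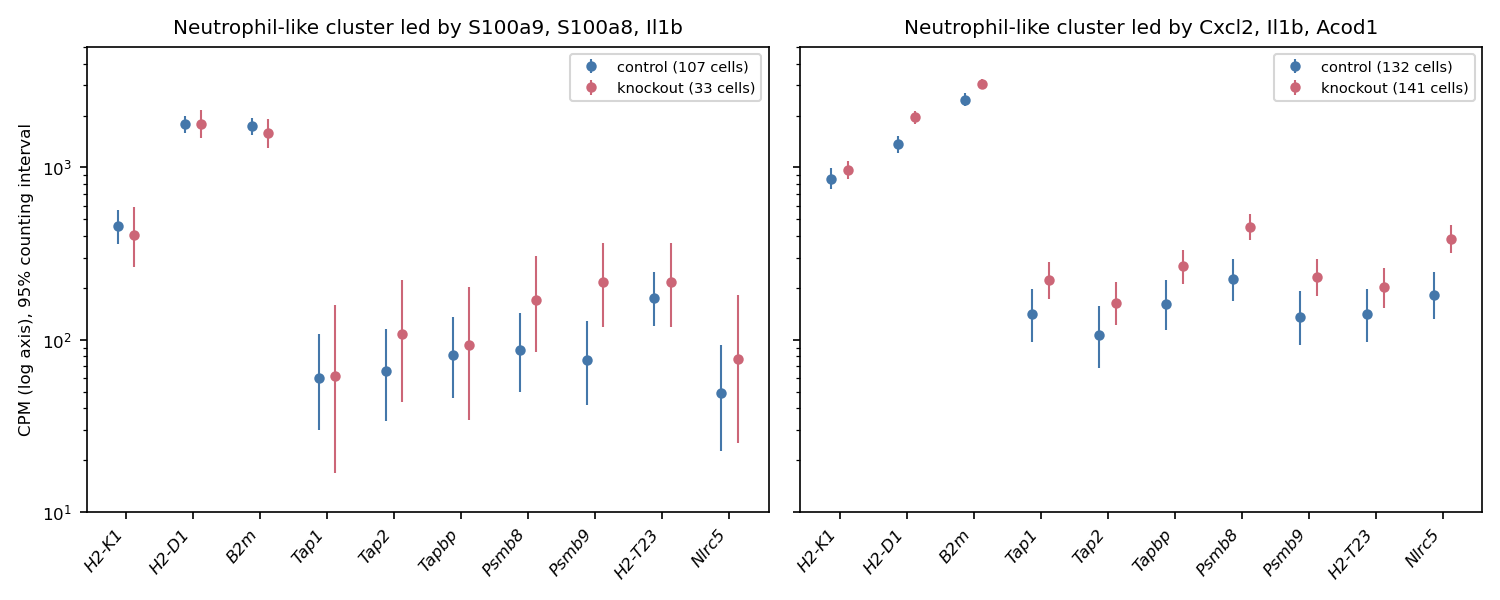
Levels of the members in CPM (log axis) in the 2 neutrophil-like clusters with at least 20 cells in each library, with control in blue, knockout in red and bars for the 95% counting interval. In the Cxcl2 cluster all 10 members lie higher in knockout, and in the S100a9 cluster most intervals overlap.

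Markers of the class itself and of other cell types also differed between the neutrophil-like groups. The 9 neutrophil markers, all detected in both libraries, summed to 161644 CPM in control and 81775 CPM in knockout. T cell markers summed to 26.7 CPM (10 of 11 at 0) and 182 CPM (1 of 11 at 0), plasmacytoid dendritic markers to 32.7 (4 of 7 at 0) and 158 CPM (1 of 7 at 0), and plasma cell markers to 137 (3 of 8 at 0) and 301 CPM (1 of 8 at 0). Acinar markers summed to 13.3 CPM (6 of 10 at 0) and 134 CPM (2 of 10 at 0). Monocyte/macrophage markers were alike, at 680 and 654 CPM, with 1 and 0 of 11 at 0. Lower in knockout were mast cell markers, at 435 CPM (1 of 6 at 0) and 60.6 CPM (3 of 6 at 0). Basophil markers were lower too, at 326 CPM (0 of 5 at 0) and 99.6 CPM (1 of 5 at 0). Leaving out the 2 control and 4 knockout cells in which over 0.5% of UMIs came from markers of other leukocytes or fibroblasts left 9 of 10 members past the fold. The part of these markers in the result beyond those cells was not tested. MHC class II genes, which are not typical of neutrophils, were past 1.5-fold in 6 of 6 measured, with Cd74 at 107 and 617 CPM. In the whole class 16.8% of 5785 genes were past it upwards and 18.7% downwards. The share without the 2 control and 4 knockout cells is not given here.

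Interferon response genes in neutrophil-like cells were higher in the knockout library as well. Of the 12 measured interferon gamma response genes 12 were past the fold upwards, with a median log2 ratio of 1.87. For type I interferon genes it was 12 of 13, with a median of 1.76. Over all 5785 genes, 16.8% were past it upwards and 18.7% downwards. These list values cover the class as a whole, whose cluster shares differed between the libraries. Rsad2, an antiviral enzyme, had 551 and 3196 CPM. Irf1, a transcription factor that acts on class I promoters, had 397 and 764 CPM. Irf8 had 0 UMIs in control and 31 in knockout, and the part of RNA from other cell types in this was not tested. Among other heavy chains, 4 of 6 were past the fold, such as H2-Q4 (31.5 and 97.4 CPM) and H2-T22 (41.2 and 97.4 CPM). The immunoproteasome and PA28 list had 4 of 5 past it (median 0.75), Psme2 at 114 and 223 CPM among them, while the constitutive proteasome core had 0 of 14 higher and 1 lower past it (median -0.15).

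Monocyte/macrophage-like cells, the class in which the deletion is directed, differed less. None of the 10 members was past 1.5-fold, where 8.41% of 9860 genes were past it upwards and 10.9% downwards, and 9 were higher in knockout, 5 of them with intervals above 0. The median log2 ratio was 0.21 against -0.03 for all genes. Psmb8 had 470 and 686 CPM (0.54, 0.43 to 0.66) and Psmb9 217 and 304 CPM (0.49, 0.32 to 0.66). H2-K1 had 1738 and 1775 CPM (0.03, -0.03 to 0.09), an interval that held 0, and H2-D1 2091 and 2325 CPM (0.15, 0.10 to 0.21). The ratios of Psmb8 and Psmb9 were larger than those of these classical heavy chains, a difference that was not tested. Other heavy chain genes had larger ones, with H2-T24 at 17.7 and 44.1 CPM (1.29) and H2-T22 at 139 and 215 CPM (0.62), and 8 of the 10 measured were higher in knockout (median 0.45). The immunoproteasome and PA28 list had a median of 0.27. The class was made of 3 clusters with different shares in the libraries. A cluster led by Arg1 and Mmp12 held 193 control and 125 knockout cells, one led by C1qa and C1qb 113 and 150, and one led by Ms4a4c and Ms4a6d 36 and 149. Within them the members' medians were 0.17, 0.07 and 0.18, with 8, 6 and 7 of 10 higher in knockout, and with clusters weighted alike the class median was 0.14. All 14 measured type I interferon genes were past the fold, with a median of 1.36, while of 13 interferon gamma response genes 5 were, with a median of 0.34 and Cxcl9 at 359 and 1076 CPM.

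In T-like cells the regulator was lower in knockout. Nlrc5 had 282 CPM in control and 180 CPM in knockout, a log2 ratio of -0.66 (-0.87 to -0.42), and was the 1 member past 1.5-fold (16.4% of 11293 genes downwards, 10.4% upwards). It was lower under all 12 alternatives (-0.78 to -0.54), but inside the fold under 4 of them: centred on the median of all genes, clusters weighted alike, doublets kept and the strict cell filter. H2-T23 was lower as well, at 285 and 227 CPM (-0.33, -0.54 to -0.10), while H2-D1 was higher, at 1313 and 1627 CPM (0.31, 0.21 to 0.41), and Psmb8 at 496 and 592 CPM (0.25, 0.09 to 0.42). H2-K1 (1785 and 1797 CPM) and B2m (2713 and 2675 CPM) had intervals that held 0, and the median of the 10 was -0.01. The class held 190 control and 1631 knockout cells, in clusters whose shares differed between the libraries. A cluster led by Nkg7, with Cd8a and Prf1 among its leading genes, held 78 control and 430 knockout cells. One with Lef1 and Il7r held 20 and 395, and one led by Tnfrsf4 and Ctla4 held 19 and 316. Nlrc5 was lower in all 4 T-like clusters with at least 20 cells in each library, from 314 and 157 CPM to 165 and 163 CPM. Ifng, the cytokine that raises class I in neighbouring cells, had 561 CPM in control and 183 CPM in knockout T-like cells, with 372 UMIs in control and 1247 in the larger knockout class. The 9 NK cell markers, among them Prf1 and Gzma, which cytotoxic T cells also make, summed to 1146 CPM in control (2 of 9 at 0) and 583 CPM in knockout (0 of 9 at 0) in this class. The part of these markers in the values of Nlrc5 and Ifng, and that of the cluster shares in Ifng, was not tested.

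Fibroblast-like cells leaned the other way. Of the members, 7 of 10 had a lower level in knockout, 4 with intervals below 0, and none was past 1.5-fold (13% of 12677 genes upwards, 7.19% downwards), with a median log2 ratio of -0.11 against 0.07 for all genes. H2-K1 had 831 and 733 CPM (-0.18, -0.24 to -0.12) and Psmb8 159 and 135 CPM (-0.24, -0.37 to -0.10), while Tapbp had 153 and 176 CPM (0.20, 0.07 to 0.33). The interferon lists were lower as well, with medians of -0.37 for the interferon gamma response and -0.40 for type I. Cxcl10 had 38.1 and 11.9 CPM and Isg15 112 and 50.9 CPM. The largest ratio of these lists went the other way: Ccl5, a chemokine made by T cells, had 3 UMIs in control and 231 in knockout (log2 ratio 5.35, 4.20 to 8.05), and T cell markers in the class summed to 2.02 CPM in control (4 of 11 at 0) and 37.2 CPM in knockout (0 of 11 at 0). Keratins were at 7.30% of the tumour level in control and 3.06% in knockout fibroblast-like cells, and the 10 epithelial/tumour markers summed to 486 CPM (0 of 10 at 0) and 222 CPM (1 of 10 at 0). With free RNA subtracted in proportion to keratins 5 of 10 members were lower in knockout instead of 7, with a median of -0.03. With called doublets kept 5 were lower and the median was 0.02.

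In the remaining classes no more than 1 member was past 1.5-fold. In cDC1-like cells 8 of 10 members were higher in knockout, 5 with intervals above 0, and none was past the fold (11% of 7111 genes upwards, 12.5% downwards). Their median was 0.21, with Tap1 at 230 and 322 CPM (0.48, 0.16 to 0.82). In plasma-like cells 8 of 10 were higher as well, 5 with intervals above 0, with a median of 0.28 against 0.17 for all genes. H2-D1 was the 1 member past the fold, at 1064 and 1654 CPM (0.63, 0.52 to 0.75), where 24.1% of 8565 genes were past the fold upwards and 10.8% downwards. H2-D1 was inside the fold under 8 of 11 alternatives, with 0.19 at the lowest. Acinar-like cells had 1, Nlrc5, at 88.3 and 57.4 CPM (-0.64, -1.04 to -0.18), where 6.86% of 10640 genes were past it upwards and 17.2% downwards. With each cell counted alike the log2 ratio of Nlrc5 there was -0.14, and centred on the median of all genes it was -0.47, both inside the fold. The 10 acinar markers, all detected in both libraries, summed to 6207 CPM in control and 24467 CPM in knockout acinar-like cells. The part of this difference in the value of Nlrc5 was not tested. NK-like cells (37 control cells), B-like cells and migratory dendritic-like cells had too few control cells for a ratio.

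Tumour-like cells were clustered again without the members and other class I heavy chains, which gave 12 subsets, named here by number and leading genes. In the control library the members were highest in subset 5, led by Cxcl10 and Cxcl9 and named interferon by its markers, for 8 of 10 members. Subset 4, led by Taco1 and Gm48099 with a median of 4236.5 UMIs, was lowest for 6. Psmb8 ranged from 128 CPM in subset 4 to 1118 CPM in subset 5, an 8.72-fold range, while H2-K1 ranged from 1157 to 3124 CPM, 2.70-fold. Psmb9 and H2-T23 had ranges of 6.90-fold and 4.21-fold between the same subsets. Nlrc5 differed from the other members in subset 4, where it was highest at 157 CPM, with subset 5 next at 116 CPM. It was lowest in subset 11, a low-depth subset, at 14.955 CPM from 8 UMIs. Tap1 and Tap2 were lowest in subset 11 as well. Since subset 5 was defined by interferon genes, its level is a description. B2m was highest in subset 11, at 4066 CPM, and Tapbp lowest in subset 7, at 102 CPM.

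Between libraries the subsets did not move alike. In the cycling subset 6 all 10 members were higher in knockout with intervals above 0, and none was past 1.5-fold (3.73% of 12424 genes upwards, 6.2% downwards). The median log2 ratio was 0.44, and Psmb8 had 758 and 1112 CPM. Subset 2, led by Cxcl12 and Adamts1, had a median of 0.35, with 9 of 10 intervals above 0 and none past the fold (5.48% of 13897 genes upwards, 4.45% downwards). There H2-T23 had 310 and 461 CPM and H2-D1 1353 and 1703 CPM. Subset 1, led by Cxcl15 and Muc5b (4.4% of 13097 genes upwards, 5.63% downwards), and subset 3, led by Muc5ac (4.67% of 13227, 3.27% downwards), had medians of 0.22 and 0.20 with 9 of 10 intervals above 0 each and none past the fold. Subset 4 had a median of 0.25 and 2 members past the fold (5.67% of 9746 genes upwards, 8.76% downwards), Tap2 at 67.7 and 119 CPM and Psmb9 at 72.7 and 117 CPM.

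Subset 7, with Hilpda and Inhba among its leading genes, leaned the other way, as did subset 9. In subset 7 all 10 members were lower in knockout, 8 with intervals below 0 and none past 1.5-fold (5.05% of 13454 genes upwards, 8.92% downwards). The median log2 ratio was -0.13 against -0.07 for all genes. Tapbp had 102 and 71.5 CPM (-0.51) and H2-K1 1875 and 1520 CPM (-0.30), while B2m with 3283 and 3211 CPM had -0.03. The interferon subset 5 had a median of -0.00 with none past the fold (5.65% of 11808 genes upwards, 5.15% downwards), 3 intervals above 0 and 3 below. Subset 9, led by Epcam (18.1% of 12157 genes upwards, 8.68% downwards), had -0.12 against 0.05 for all genes. Its 1 member past the fold was Nlrc5 at 48.0 and 30.6 CPM. In subset 9 6 intervals were below 0 and 0 above it, and 3 members were higher in knockout. Subset 11 (10.4% of 4713 genes upwards, 14.9% downwards) had 0.11 over the 9 members with 20 UMIs, all but Nlrc5, and 1 past the fold, Tapbp at 168 and 106 CPM. Subsets 8, 10 and 12 had too few cells in a library for a ratio.

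Subset 7 held 12.8% of tumour-like cells in control and 27.5% in knockout, and the class value includes it with those shares, which rest on genes that differ between the libraries and are not read as a result. Without it the members' median in tumour-like cells was 0.31 instead of 0.15, and all 10 members were higher in knockout, Tapbp included. Its interferon genes were split by list. Type I interferon genes summed to 4277 CPM in control and 5519 CPM in knockout, while interferon gamma response genes summed to 1908 and 1600 CPM. Of the latter list 2 of 14 were higher in knockout and 3 lower past the fold, with Cxcl9 at 67.1 and 36.0 CPM. Of the 14 type I genes 12 were higher, with Ifit3 at 902 and 1337 CPM. Over all 13454 genes of this subset, 5.05% were past the fold upwards and 8.92% downwards. In the cycling subset both lists were higher in knockout, from 3001 to 5250 CPM for interferon gamma and from 1670 to 2472 CPM for type I. In subset 7 the members' direction was that of the interferon gamma list, and in the cycling subset that of both lists. Subset 5 had medians of -0.16 for interferon gamma and 0.11 for type I, with the members at -0.00. Both medians were below 0 in subset 9, at -0.46 and -0.07, with the members at -0.12. In subsets 1, 2, 3, 4 and 11 both lists and the members had medians above 0. No link between the lists and the members was tested.

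**Figure D4:**
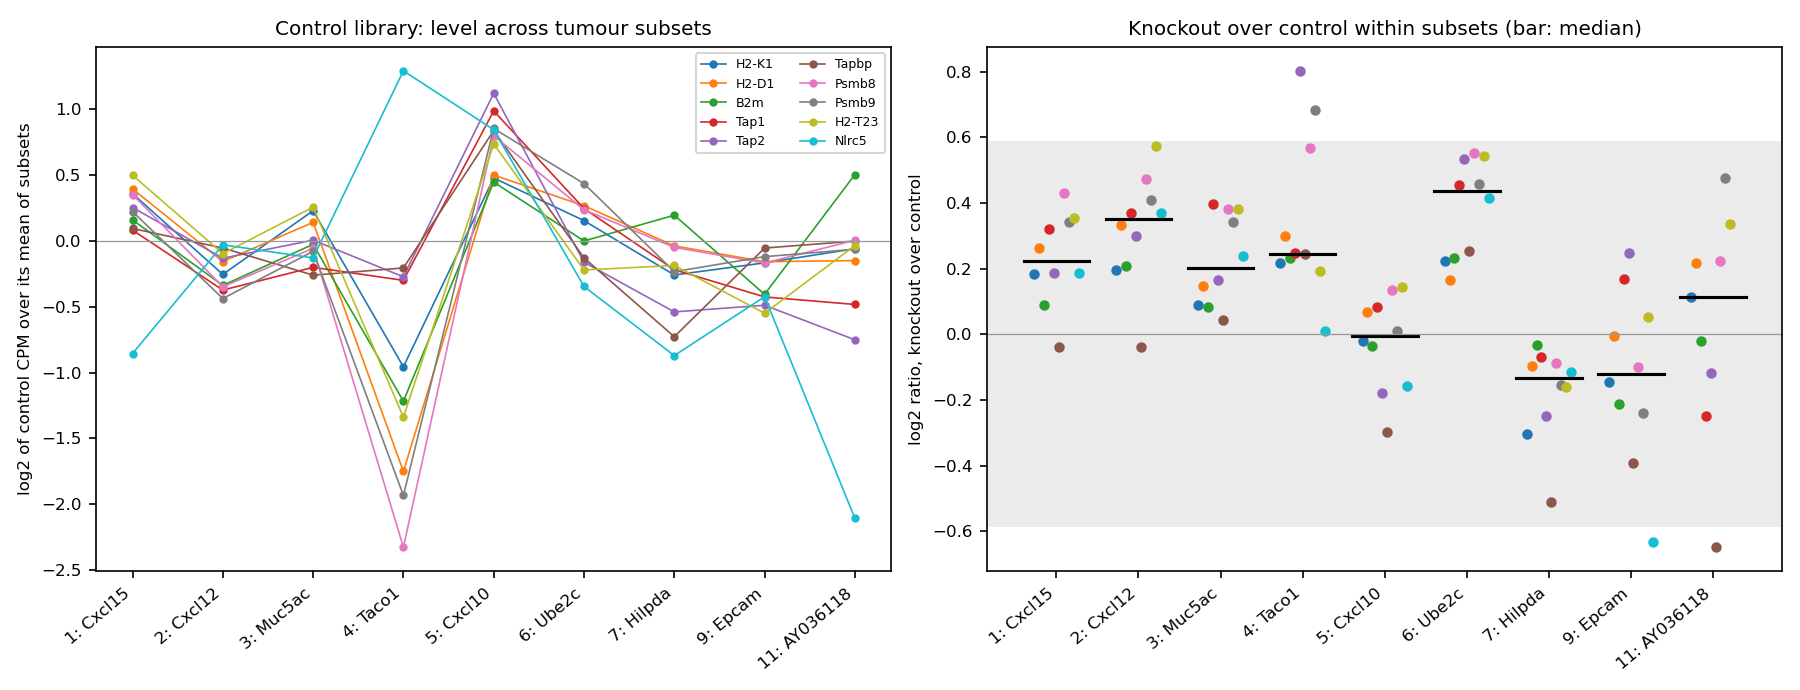
On the left, control CPM of each member in 9 tumour subsets as log2 over its mean of the subsets; on the right, log2 ratio of knockout over control with a black bar for the median and a grey band for ratios under 1.5-fold. Subset 5 is the peak and subset 4 the trough for most members, and in subset 7 all 10 points on the right lie below 0.

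Single tumour cells were compared after thinning each to 5000 UMIs, which kept 8486 control and 5181 knockout cells and left out 951 and 539. The 10 members together gave a median of 39 UMIs per control cell, with 19 at the 10th and 67 at the 90th percentile. In knockout the median was 45, with 22 and 72 at those percentiles, so the distributions overlapped over most of their range. Cells with no UMI of either H2-K1 or H2-D1 were rare, at 16 control cells (0.189%, exact binomial interval 0.108% to 0.306%) and 9 knockout cells (0.174%, 0.0795% to 0.330%). The median cell had 18 heavy chain UMIs in control and 20 in knockout. Free RNA can give UMIs to a cell that makes none, so these shares set no limit on cells without classical heavy chain RNA. In subset 7 the median sum was 37 in control and 34 in knockout, and in the cycling subset 44 and 54.5. The interferon subset had 62 in both libraries.

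The spread of the abundant members was larger than counting gives. The variance over the mean, which counting noise alone would put near 1, was 3.85 for H2-K1 in control and 4.04 in knockout, against medians of 2.72 and 2.83 for genes of like level. B2m had 3.84 in control and 3.09 in knockout, against 3.01 and 3.48, so in knockout it varied less than such genes. Psmb8 had 2.30 and 2.26, against 1.63 and 2.05, and Nlrc5, with a UMI in few cells, 1.32 and 1.31 against 1.08 and 1.10. Differences between subsets took 15.3% of the variance of H2-K1 in control and 29.2% in knockout, and 9.06% and 18.5% of that of Psmb8. For B2m the shares were 12.9% and 12.2%. In every member most of the variance, counting noise included, lay within subsets.

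Across single tumour cells the pair H2-K1 and H2-D1 had the highest correlation of 45 pairs, with r = 0.60 over 8486 control and 0.63 over 5181 knockout cells. The median pair had 0.17 and 0.20, and the lowest pairs were H2-D1 with Nlrc5 at -0.01 in control and B2m with Nlrc5 at -0.06 in knockout. The summed members correlated with the interferon gamma response list at 0.42 in control and 0.49 in knockout, and with the type I list at 0.41 and 0.24. These are descriptions over cells of 1 library each, which were thinned to the same depth but share free RNA. Reads that could come from either H2-K1 or H2-D1 make the correlation of that pair uncertain. In sparse genes such as Nlrc5, absent from 77.6% of control and 75.5% of knockout cells at this depth, a weak correlation shows little.

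**Figure D5:**
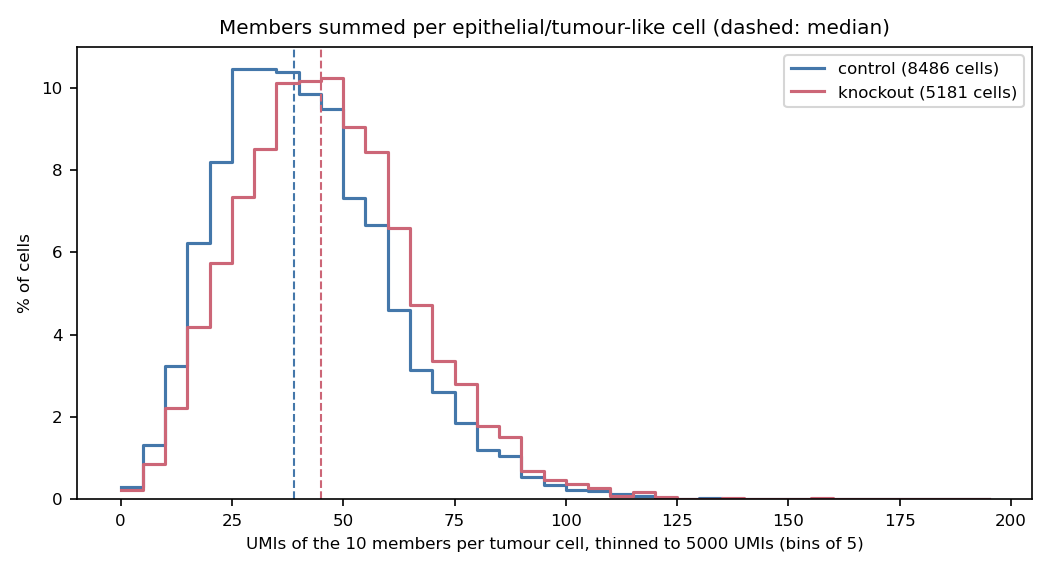
Distribution over epithelial/tumour-like cells of the UMIs of the 10 members summed per cell after thinning to 5000 UMIs (bins of 5), as percent of cells, with control in blue, knockout in red and dashed lines at the medians. The medians are 39 and 45 UMIs, and both curves have a single peak.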

How the data were processed

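Droplet 3′ libraries were counted by the authors, and the deposited matrices hold raw UMI counts per gene and barcode without normalisation. Cell Ranger 8.0.0 is named per the file headers, while the submitters' processing notes name Cell Ranger 3.1.3 and mm10. The conflict was not settled, and how reads shared between similar genes were assigned is not given in the sources used here.

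From these counts, barcodes with 500 genes or more, and mitochondrial UMIs of no more than 15%, passed (84.7% of control and 88.2% of knockout barcodes), and Scrublet in scanpy 1.11.5 called 148 (1.27%) and 341 (3.16%) doublets, which were removed. Kept cells had a median of 12167.5 UMIs (control) and 10109 UMIs (knockout). Leiden clustering at resolution 1 used 2000 variable genes, without the members and other class I heavy chains. Clusters were named from markers of 21 classes only where at least 3 were detected. Clusters with mixed or weak markers, 628 control and 335 knockout cells, stayed unnamed. Names may therefore differ from the study's.

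UMIs were summed per class and library. CPM is relative to the UMIs of the class. Ratios used a pseudocount of 1 UMI, a minimum of 20 UMIs per gene and of 50 cells per library in each class or tumour subset. Levels needed 20 cells, and ratios within leukocyte clusters needed 20 cells in each library. Intervals are exact Poisson, conditional or Clopper-Pearson at 95%. They cover counting error only, because each genotype is 1 library of 5 pooled mice. The Poisson and conditional intervals also leave out variation between cells. Counts of members with intervals above or below 0 have no share over all genes beside them. Counted as past the fold means at least 1.5-fold. Ratios and thinning were tested on simulated data. The members, markers and 11 gene lists were chosen with earlier results of these data known. All members are named, and from each list up to 4 genes past the fold with the largest ratios, plus genes named as examples after their values were seen (Calr, Pdia3, Psmb10, Isg15 and others). Gene positions come from GENCODE M21 and promoters from RefSeq, where Tap2 and Nlrc5 were not matched.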

Additional observations from a re-analysis of the deposited data

Results flagged for a closer look

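Nlrc5 was past 1.5-fold in opposite directions in different classes. Its log2 ratio of knockout over control was 1.98 in neutrophil-like cells, -0.66 in T-like cells and -0.64 in acinar-like cells. In neutrophil-like cells Nlrc5 was past the fold under all 12 alternatives (1.03 to 2.02). In T-like cells it was inside the fold under 4 of 12 (-0.54 under the strict cell filter, and also when centred on the median of all genes, with clusters weighted alike and with doublets kept). In acinar-like cells it was inside it under 2 of 3, at -0.47 when centred and -0.14 as a mean over cells. The acinar markers of that class also differed, with sums of 6207 CPM in control and 24467 CPM in knockout. With 1 library per genotype the difference between the classes was not tested.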

How the results depend on the processing

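No paired analysis was possible because each genotype has 1 library, and no replicate could be left out for the same reason. The median log2 ratio of the members in epithelial/tumour-like cells, 0.15, was 0.20 when centred on the median of all genes. Leaving out the interferon subset gave 0.12 and leaving out the Hilpda and Inhba subset gave 0.31, both alternatives added after seeing the data. In fibroblast-like cells the median of -0.11 was -0.34 under the strict cell filter and -0.36 at Leiden resolution 0.5, and the cause was not tested. Over all alternatives run, the median stayed between 0.59 and 1.14 in neutrophil-like, 0.10 and 0.27 in monocyte/macrophage-like, and -0.04 and 0.07 in T-like cells. The neutrophil-like count of 8 members past the fold was 5 with clusters weighted alike (added after seeing the data), 6 as a mean over cells and 10 when centred or with free RNA subtracted. In plasma-like cells the call of H2-D1 was lost under 8 of 11 alternatives, in T-like cells that of Nlrc5 under 4 of 12 and in acinar-like cells that of Nlrc5 under 2 of 3. Under the strict cell filter 75 and 44 neutrophil-like cells were left and no value was computed. The same held for cDC1-like cells under the strict filter and under thinning to 2000 UMIs, and for acinar-like cells under 7 alternatives. No unnamed tumour cluster existed to be added. Depth limits the low members most: in neutrophil-like cells Tap1, Tap2 and Nlrc5 rest on 49 to 118 UMIs per library.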
